A study of Homo sapiens with 3 samples.

Results

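The genes described here are 7 that encode receptors and surface proteins of invasive cancer cells: EGFR, MET, AXL, TGFBR2, CD44, ITGB1 and CAV1. Their m6A regions were chosen by position alone, as the regions whose midpoint fell within a fixed window of hg19 around each gene. This gave 143 regions out of 41836 in the deposited list (0.342%). The study captured nuclear RNA of MDA-MB-231 cells on protein A beads, with an m6A antibody raised in rabbit in 2 libraries and with control IgG of the same species in 1; MDA-MB-231 is a long-established line of human breast cancer cells with mesenchymal character. No treatment or genetic change is named for any of the 3 libraries, and nothing in the labels says whether the 2 m6A libraries came from separate cultures. The outcome analysed was 1 list of regions for the series, with a position and a strand for each region and a score that is 1 throughout. Each value below is therefore a single value without replicate error, and neither the height of a region nor its enrichment over IgG could be measured.

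N6-methyladenosine (m6A) is a methyl group added to adenosines of RNA, chiefly by the METTL3 and METTL14 enzyme complex, at sites with a short consensus around the sequence GGACU. In mature messenger RNA the mark is known to be frequent in long exons and near the stop codon, whereas nuclear RNA also holds unspliced precursors with their introns. EGFR, MET and AXL are receptor tyrosine kinases, which pass growth factor signals through phosphorylated tyrosines. TGFBR2 is a serine/threonine kinase receptor for TGF-beta, CD44 binds hyaluronan, ITGB1 is the beta subunit shared by many integrins, and CAV1 is the main coat protein of caveolae.

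The sequence under the regions was not read, since no genome of the files' build was used. To show the kind of site that the antibody's target has in these RNAs, the GGACT closest to the stop codon in the principal transcript of each gene (GENCODE release 29, GRCh38) is printed below in capitals with 10 nt on each side. These sites were located in transcripts only, and whether a region covers any of them was not tested.
EGFR: actaccagcaGGACTtctttcccaa
MET: cactattataGGACTtgtattgtta
AXL: ctgtctggatGGACTgtatgccttg
TGFBR2: tatttctcctGGACTtttcatttaa
CD44: aaagccaagtGGACTcaacggagag
ITGB1: ttcatgccagGGACTgacaaaagac
CAV1: ctgcctttggGGACTtttcttaaac

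The sites of EGFR, AXL and CD44 lie in the coding sequence, 107, 352 and 133 nt before the end of the stop codon. Those of MET, ITGB1, TGFBR2 and CAV1 lie in the 3′ UTR, 117, 185, 695 and 1439 nt after it. The motif was searched on the transcript strand only. It occurred 12 times in the EGFR transcript (1.22 per kb), 11 times in MET (1.66 per kb), 8 times in AXL (1.69 per kb), 5 times each in TGFBR2 (1.08 per kb) and CD44 (0.872 per kb), 4 times in ITGB1 (1.06 per kb) and once in CAV1 (0.37 per kb). Over 19659 protein-coding genes the median was 0.933 per kb, and 88.0% of genes had at least 1 GGACT. These densities are per kb of spliced transcript, unlike the densities of regions given next, which are per kb of genomic window. AXL was highest and CAV1 among the lowest on both scales, and MET was near the highest in motif and lowest in regions.

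All 7 windows held m6A regions, but their number differed widely. EGFR held 55 regions in a window of 239 kb, TGFBR2 26 in 89 kb, AXL 20 in 43 kb, CD44 16 in 94 kb, ITGB1 15 in 59 kb, CAV1 6 in 38 kb and MET 5 in 127 kb. EGFR alone contributed 38.5% of the 143. Per kb of window AXL was highest with 0.465 regions (exact 95% Poisson interval, 0.284 to 0.718). It was followed by TGFBR2 with 0.292 (0.191 to 0.428), ITGB1 with 0.254 (0.142 to 0.419), EGFR with 0.230 (0.173 to 0.300), CD44 with 0.170 (0.097 to 0.276) and CAV1 with 0.158 (0.058 to 0.344). MET was lowest with 0.039 (0.013 to 0.092), a density 11.9-fold below that of AXL. The intervals cover counting error only, and since regions cluster they are too narrow. Each gene's interval overlapped that of its neighbour in this order, and MET's interval lay below that of every gene except CAV1.

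With no expression values in the list, more RNA of a gene and more methylation of its RNA cannot be told apart. The window lengths were close to the gene lengths in RefSeq (GRCh38.p14) for 6 genes, with an excess of 0.5 to 1.8 kb. The EGFR window exceeded the RefSeq length of 193 kb by 46.4 kb. Per kb of RefSeq length EGFR had 0.286 regions, close to the TGFBR2 value of 0.296 and above the ITGB1 value of 0.259. The order of EGFR and ITGB1 was thus the reverse of that per kb of window.

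The regions followed the strand of the genes. Of the 143 regions, 142 (99.3%, exact 95% binomial interval 96.2 to 99.98%) were deposited on the strand of their gene. In the list as a whole 57.4% of regions lie on the minus strand. How many of the list lie on the strand of their gene was not measured, so 99.3% cannot be called particular to these genes. The 6 genes of the plus strand had a single minus-strand region among 128. The 15 regions of ITGB1, the only minus-strand gene of the 7, were all on the minus strand. The exception was a region of 35 nt in the AXL window, chr19:41765940-41765974, at 0.952 of the window length from its upstream edge. It lay 1.92 kb from the nearest plus-strand region of AXL and 63.3 kb from the nearest other minus-strand region.

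**Figure D1:**
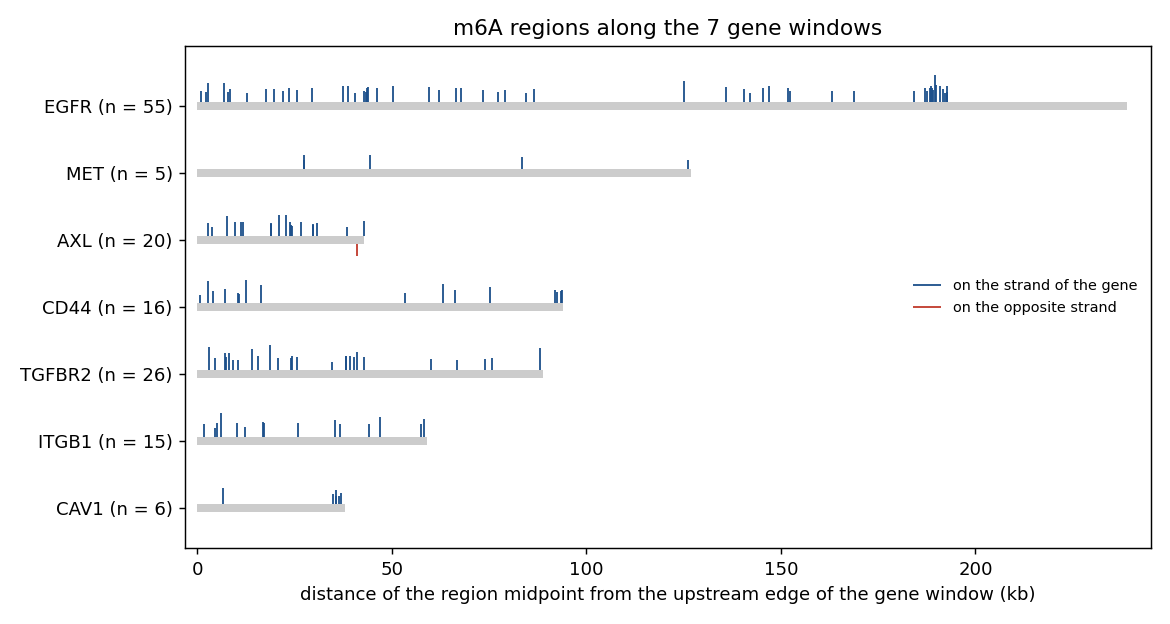
m6A regions along the 7 gene windows, drawn by the distance of the region midpoint from the upstream edge of the window in kb. Grey bars are the windows to scale, each line is 1 region and its height grows with the logarithm of its width. EGFR carried 31 regions in its first 86.6 kb and a dense group toward its downstream end, the regions of CAV1 gathered at its downstream end, and the first pair of MET regions, 113 nt apart, appears as 1 line. The single region on the opposite strand, in AXL, points down.

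The flanks held fewer m6A regions than the window in 6 of the 7 genes. Stretches of equal length immediately upstream of EGFR, AXL, TGFBR2 and CD44 held 0 regions, and those immediately downstream of MET, CD44, ITGB1 and CAV1 held 0. CD44 stood alone, with 16 regions in its window, none in the 94 kb on either side, and the nearest regions 159.71 kb upstream and 452.84 kb downstream of the window. TGFBR2 had 26 regions in its window, 0 upstream and 1 downstream, and that 1 lay 1.9 kb past the window edge on the strand of the gene. ITGB1 had 15 in its window, 1 upstream on the opposite strand and 0 downstream. CAV1 had 6 in its window, 2 upstream on its own strand and 0 downstream.

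EGFR had 55 regions in its window, 0 in the upstream flank and 6 in the downstream flank, of which 1 was on the strand of the gene. AXL had 20 regions in its window, 0 in the upstream flank and 8 in the downstream flank of 43 kb, all 8 on the plus strand. The first of the 8 lay 3.31 kb beyond the window, and joining plus-strand regions up to 10 kb apart gave a chain of 25 regions, chr19:41727835-41785074, that runs past the edge. The last region counted for AXL, chr19:41767893-41767950, lay 0.08 kb inside that edge, so the limit between AXL and what follows it rests on the window alone.

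MET and CAV1 are neighbours on chromosome 7 and share a strand. The 110 kb between their windows held 1 region, on the minus strand. The upstream flank of MET reached into the CAV1 window and held 6 regions, of which 5 belonged to CAV1, so MET was the only gene of the 7 whose window was not denser than both of its flanks. For scale, the chromosomes were cut end to end into pieces of each window's length, and the median piece held 0 regions for all 7 lengths. The fullest piece held 74 regions for the EGFR length on chromosome 7, 45 for the TGFBR2 length on chromosome 3, 91 for the CD44 length on chromosome 11, 35 for the ITGB1 length on chromosome 10, and 48 and 33 for the MET and CAV1 lengths on chromosome 7. AXL itself held 20 regions, and the fullest piece of its length on chromosome 19 held 19. The pieces were cut at fixed points and can split a dense stretch, whereas the windows follow the genes. Whether another stretch of the AXL length on that chromosome held 20 or more was not tested. Pieces of this kind include stretches without genes, so the comparison says nothing about how the 7 genes rank among expressed genes.

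**Figure D2:**
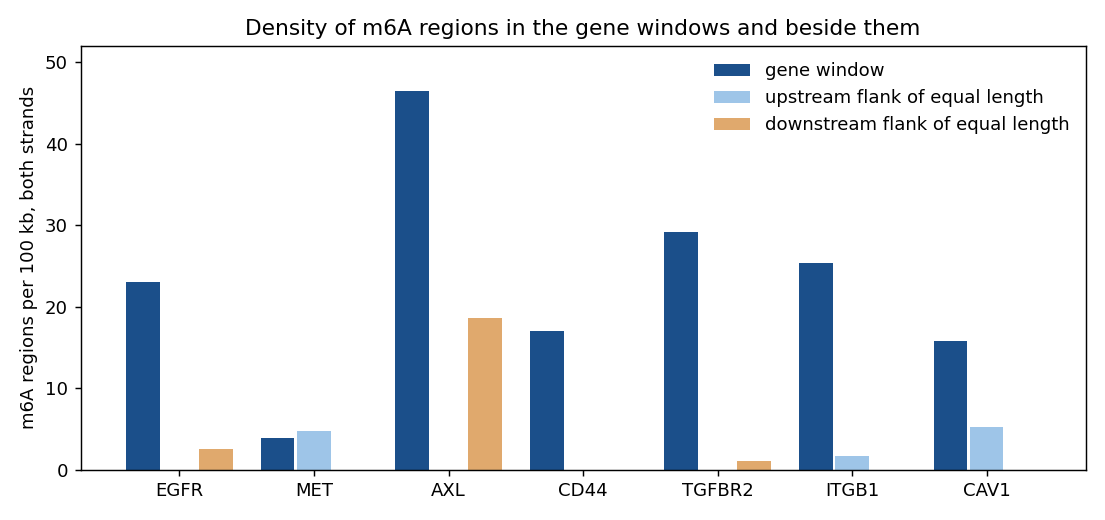
m6A regions per 100 kb, counted on both strands, in each gene window and in the upstream and downstream flanks of the same length. The window stood above both of its flanks in 6 genes, with 46.5 per 100 kb in AXL against 0 upstream and 18.6 downstream, and MET had 3.94 in its window against 4.72 upstream, where its flank takes in part of CAV1.

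Among the receptor tyrosine kinases, EGFR had regions in a broad upstream stretch and in a compact downstream group. The first region, chr7:55086893-55086921, lay 0.9 kb from the upstream edge, and 31 regions followed each other up to 86.6 kb, all within 10 kb of the next, over chr7:55086893-55172648. No region was listed in the next 38.4 kb. The remaining 24 regions lay between 125.1 and 192.8 kb, beginning with a region of 153 nt at chr7:55211009-55211161. Of these, 13 formed the largest tight cluster of the 7 genes, in which neighbours were at most 1 kb apart. It covered chr7:55273078-55278770 (5.69 kb), regions made up 16.9% of its length, and it held the widest region of the 7 genes, of 376 nt at chr7:55275294-55275669. The last 46.2 kb of the window held 0 regions, which is close to the 46.4 kb by which the window exceeds the RefSeq length.

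The layout of the EGFR transcript gives the scale for these distances. In GENCODE its principal transcript spans 193 kb with 28 exons, the exons make up 5.10% of that span, the first intron alone measures 123 kb (63.8%), and the last exon measures 6373 nt. These are lengths in GRCh38 and were not laid over the hg19 positions, so no region was assigned to an exon or an intron. The same holds for the GENCODE lengths given below for the other genes.

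MET had 5 regions of 21 to 50 nt. They lay at chr7:116339440-116339462 (23 nt), chr7:116339576-116339625 (50 nt), chr7:116356328-116356373 (46 nt), chr7:116395456-116395490 (35 nt) and chr7:116438146-116438166 (21 nt). The upstream 27.5 kb of the window and a stretch of 42.7 kb before the last region held none. The last region lay 0.84 kb inside the downstream edge, and the MET last exon measures 2500 nt in GENCODE.

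AXL carried regions along most of its length, without a stretch as long as the 38.4 kb without regions in EGFR. The median gap between neighbours on its strand was 1.63 kb, close to the 1.92 kb of EGFR and above the 0.546 kb of CAV1. Its longest gap was 7.72 kb, the shortest such longest gap of the 7 genes, in a window of 43 kb against 239 kb for EGFR. The group with the most regions when neighbours up to 1 kb apart were joined held 4 and covered chr19:41747859-41749379 (1.52 kb). The widest regions measured 155 nt at chr19:41745927-41746081, 135 nt at chr19:41747859-41747993 and 121 nt at chr19:41732537-41732657. AXL also had the highest share of exon sequence, with exons making up 11.1% of a span of 42.6 kb in GENCODE. The other 6 genes had 5.10 to 7.43%, and the median over the 19659 protein-coding genes was 12.5%. The densities of regions did not follow this order, since CAV1 had the 7.43% and a density above that of MET only. Whether exon share and density are linked was not tested.

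TGFBR2, the ligand-binding receptor of the TGF-beta pathway, carried most of its regions toward its upstream end. Of its 26 regions, 21 lay upstream of the window's centre and 5 downstream of it. The 21 regions formed a single chain over chr3:30650002-30689975 (40.0 kb), followed by 17.1 kb without a region. The largest group joined at 1 kb held 5 regions over chr3:30685198-30688010 (2.81 kb). The widest region, of 250 nt, lay at chr3:30665627-30665876, 18.8 kb from the upstream edge. Regions of 183 nt at chr3:30650002-30650184 and of 173 nt at chr3:30734957-30735129 were the first and the last in the window. In GENCODE the first intron of the transcript is its longest and measures 37.8 kb (43.1% of the span).

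Of the adhesion receptors, CD44 had its regions in an upstream and a downstream group, with a long gap between them. A first group of 8 regions lay between 0.8 and 16.5 kb from the upstream edge, over chr11:35160816-35176590, and included the widest region of 192 nt at chr11:35172605-35172796 and one of 158 nt at chr11:35162802-35162959. Its shortest pair within 1 kb lay in the same group, at chr11:35170572-35170890. After 36.8 kb without a region, the other 8 lay between 53.4 and 93.8 kb. The final 4 of them stood in the last 2.05 kb of the window, with the last region at chr11:35253827-35253870, 0.15 kb inside the edge. The longest intron in GENCODE is the first, with 37.2 kb, and the last exon measures 3274 nt. Whether the 36.8 kb without a region lies in that intron was not tested, and their like lengths do not make them the same stretch.

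ITGB1, read from its upstream edge at the high end of the window, began with a region of 42 nt at chr10:33246069-33246110. Its widest region, of 235 nt at chr10:33241667-33241901, lay 6.2 kb from that edge. No more than 2 regions were joined at 1 kb, most closely at chr10:33230770-33231023. In all, 13 of its 15 regions were joined in a chain of 45.3 kb, and the last 2, of 44 and 91 nt, stood apart after a gap of 10.3 kb at chr10:33190434-33190477 and chr10:33189621-33189711, the second of them 0.67 kb inside the downstream edge.

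CAV1, unlike TGFBR2, had most of its regions at its downstream end. A single region of 69 nt, chr7:116170592-116170660, lay 6.6 kb from the upstream edge and was followed by 28.4 kb without any. The other 5 regions formed a cluster of 1.89 kb at chr7:116199021-116200906, at 0.922 to 0.971 of the window length, and measured 26, 51, 20, 19 and 32 nt. The GENCODE transcript of CAV1 has 3 exons, a last intron of 32.3 kb that takes up 88.6% of its span and a last exon of 2231 nt. The nearest region upstream of the window, of 24 nt on the same strand, lay 17.58 kb outside it.

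**Figure D3:**
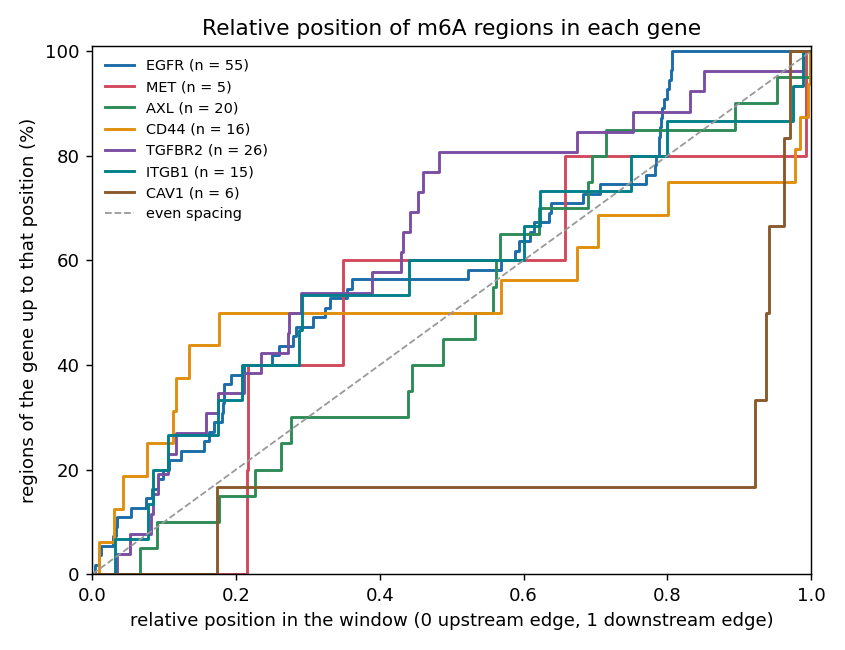
Cumulative share of each gene's m6A regions by relative position in its window (0 is the upstream edge and 1 the downstream edge), with a dashed line for even spacing. The curve of TGFBR2 rises early (median position 0.282), that of AXL rises later (0.546), that of CAV1 rises at the end (0.939), and that of EGFR ends at 0.807 because the rest of its window held 0 regions.

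Set side by side, the median relative position was 0.282 in TGFBR2, 0.292 in ITGB1, 0.324 in EGFR and 0.349 in MET. It was 0.372 in CD44, 0.546 in AXL and 0.939 in CAV1. The EGFR window runs 46.2 kb past its last region, so the EGFR median and its place in this order depend on that window. Over all 143 regions, 82 lay upstream of the centre of their window (57.3%, exact 95% binomial interval 48.8 to 65.6%). The interval includes even division, but it covers counting error only and is too narrow because regions cluster. EGFR contributed 31 of the 82 and TGFBR2 21. The centre of the EGFR window fell in its longest gap, between 86.6 and 125.1 kb. A centre elsewhere in that gap would leave the 31 unchanged. Every gene except EGFR had its last region within 1.11 kb of the downstream edge, and the 7 distances of the first region from the upstream edge ran from 0.8 kb in CD44 to 27.5 kb in MET.

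The widths of the 143 regions were close to those of the list. The median width was 44 nt over the 143 regions and 45 nt over the 41693 others, with quartiles of 31 and 55 nt against 33 and 54 nt. Regions over 100 nt numbered 16 of 143 (11.2%, exact 95% binomial interval 6.53 to 17.5%), against 10.3% of the whole list. They comprised 4 each in EGFR and TGFBR2, 3 each in AXL and CD44, 2 in ITGB1 and 0 in MET and CAV1. Regions over 200 nt numbered 3 of 143 (2.10%, 0.435 to 6.01%), against 1.80% of the others, and occurred once each in EGFR, TGFBR2 and ITGB1. A width of exactly 49 nt, the most frequent in the list, was held by 6 of the 143 (4.20%) and by 8.80% of the others. Of these 6, 4 were among the 127 plus-strand members and 2 among the 16 minus-strand members.

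Between genes, the median width was 48 nt in ITGB1, 44 nt in EGFR, 43 nt in TGFBR2 and CD44, 41.5 nt in AXL, 35 nt in MET and 29 nt in CAV1. The ranges overlapped in every pair of genes. The regions covered 1076 nt of the AXL window, the highest share of the 7, followed by 1.89% of TGFBR2, 1.67% of ITGB1, 1.23% of EGFR, 1.04% of CD44, 0.571% of CAV1 and 0.138% of MET. This is the order of the densities per kb of window.

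**Figure D4:**
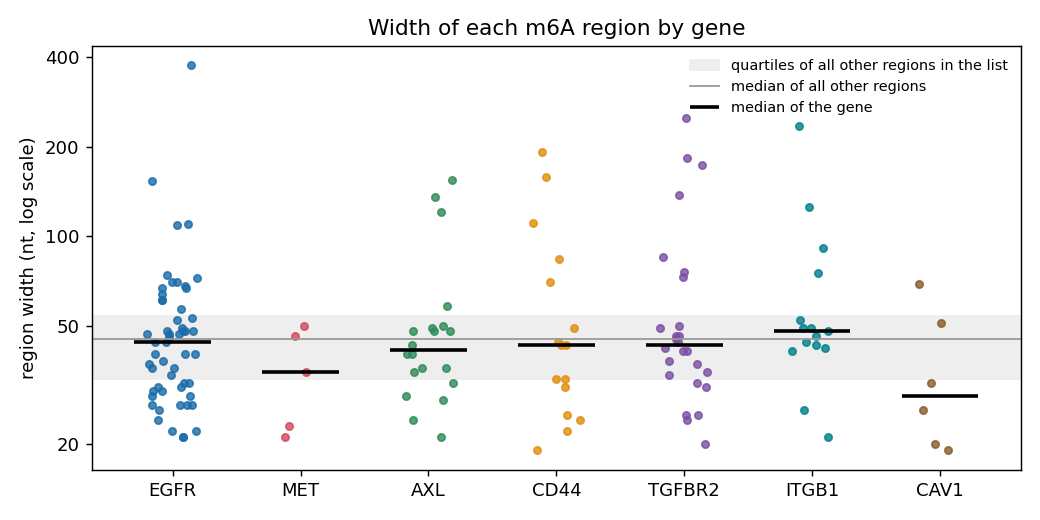
Width in nt (log scale) of each m6A region by gene, with points spread sideways for legibility, the gene's median as a black bar, and the median and quartiles of the 41693 other regions as a line and band. Gene medians ran from 29 nt in CAV1 to 48 nt in ITGB1, and single wide regions reached 376 nt in EGFR, 250 nt in TGFBR2 and 235 nt in ITGB1.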

How the data were processed

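Bowtie2 and the build hg19 are named in the submitters' processing notes. How regions were called and filtered, whether IgG entered, and how libraries were pooled is not given in the sources used here. In place of values per library, the authors deposited 1 list of regions with start and end positions; the deposited score is 1 for every region and was not used. Depth per library is unknown.

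Windows were those of the rule, in kb of hg19; a region belonged to a gene when its midpoint fell inside. The 7 genes, the windows and all measures were chosen with earlier results of these data known. The named regions are, by rule, the widest region, the cluster joined at 1 kb with the most regions (the shortest where tied) and the outermost regions of each gene; further regions were named after their positions were seen. Positions count from 1. Relative position is measured along the gene's strand. Regions were joined at 1 kb (tight clusters) and 10 kb (chains). Flanks have the length of the window. Intervals are exact 95% binomial or Poisson intervals and cover counting error only. No test was run.

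Gene lengths came from RefSeq, and exon lengths and the motif from GENCODE release 29, taking the principal transcript by APPRIS and then by length. Both are in GRCh38, and no position was converted. The location of regions in exons, and a list of other receptor and adhesion genes, would have needed an hg19 annotation and were not analysed here. On simulated regions, the number, strand and position were recovered for 7 of 7 genes. The simulated background lay on other chromosomes than the genes, and no simulated region lay near a window edge. Assignment at the edges was therefore not checked. The software was matplotlib 3.10.9, scipy 1.17.1, pandas 2.3.3 and numpy 2.4.6 under Python 3.11.15.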

Additional observations from a re-analysis of the deposited data

How the results depend on the processing

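Of 72 values recomputed under an alternative, 63 kept within their limit, which was 1.5 times for counts and densities and the 95% counting interval for shares and medians. The other 9 moved, all when only regions wider than the list median of 45 nt were kept, which removes regions by construction. The 7 windows then held 65 regions in place of 143, and 100% in place of 99.3% lay on the strand of the gene, since the AXL exception is narrow. Regions per kb became 0.109 in EGFR, 0.016 in MET, 0.209 in AXL, 0.064 in CD44, 0.124 in TGFBR2, 0.153 in ITGB1 and 0.053 in CAV1, so ITGB1 passed TGFBR2 while AXL stayed highest and MET lowest. The median position was 0.556 in CAV1 and 0.156 in CD44 there, against 0.939 and 0.372 with all regions; both stayed within intervals that are wide for so few regions. Any overlap with the window gave 143 regions, windows extended by 5 kb 147, joining regions within 200 nt 130, and the strand of the gene alone 142. In every gene except AXL, all regions already lay on the strand of the gene. Keeping that strand alone could change nothing there, yet these values count among the 63. Use of the RefSeq length as the denominator was chosen after seeing the data. No paired analysis was possible because the list has no column for a single library, and for the same reason no library could be left out. Depth and enrichment over IgG behind each region are unknown.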
